A study of Mus musculus with 6 samples.

Results

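Arterial endothelial cells of the mouse lung were read as 246 of 28516 cell barcodes in 6 single-cell RNA-seq libraries. Of these barcodes 24640 passed the filters on genes and mitochondrial UMIs, and 16598 were endothelial, those with venous or aerocyte genes included. The AML libraries (3) came from lungs infiltrated by acute myeloid leukaemia and held 43, 27 and 33 arterial cells (103). The Control libraries (3) came from normal lungs and held 29, 56 and 58 (143). In both groups the lungs were digested with Liberase and DNase I and the non-haematopoietic cells were sorted. GFP-positive leukaemia cells were then sorted and mixed back into the AML suspensions before the 10x Genomics 3' libraries were made. The labels give no strain, age, sex, leukaemia genotype or time, and do not say whether a library came from 1 animal or from a pool, so a p-value here measures the spread between libraries, which may be technical.

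Arterial cells line the vessels that carry blood into the capillary bed. They sit on an elastic wall, whose matrix they help to make, and are known for signalling through Notch receptors and for the gap junction proteins of Gja4 and Gja5. In the lung they pass into general capillary cells, which hold Gpihbp1, the anchor of lipoprotein lipase, and the receptor Kit, and into aerocytes, which hold the carbonic anhydrase Car4.

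The members were chosen by UMIs, that is, by transcript molecules counted once each. A barcode had at least 500 genes and at most 15% mitochondrial UMIs. It had at least 2 UMIs summed over Cdh5, Pecam1 and Cldn5, which mark all endothelium, and at least 2 summed over the arterial genes Gja5, Dkk2 and Bmx. Barcodes with the venous gene Slc6a2, the aerocyte genes Ednrb or Fibin, the leukocyte gene Ptprc, the epithelial gene Epcam, more than 2 platelet UMIs (Pf4 and Ppbp) or more than 1 UMI of Trap1a and Trnp1 were left out. No member shared its barcode with a member of another library. The values of Gja5, Dkk2 and Bmx chose these cells and are given as a description only.

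Summed over arterial cells, the AML libraries held 223145, 156919 and 170894 UMIs, and the Control libraries held 340902, 540373 and 424355. The median arterial cell had 4617, 5514 and 3955 UMIs in the AML libraries, against 10918, 7182.5 and 6000.5 in the Control libraries, so Control cells were read more deeply. Levels are counts per 1000000 UMIs of the sum (CPM). Control 1 stood apart from the other Control libraries: the chi-square per degree of freedom of its arterial counts was 5.74 against Control 2 and 5.99 against Control 3, whereas Control 2 and Control 3 gave 2.0 and the AML pairs 1.95 to 3.24. Matrix Gla protein (Mgp) shows it, with 2182 CPM in Control 1, 8527 in Control 2 and 7249 in Control 3. Each library counted as a sample. The chi-square takes UMIs as independent, which UMIs of the same cell are not. It therefore cannot show whether libraries differ beyond the sampling of cells. Markers of other endothelial cells were plentiful in the members. The 10 general capillary markers, Gpihbp1 and Kit among them, summed to 7690.1, 5105 and 7841 CPM in AML, against 9844, 7023 and 6968 CPM in Control, while other endothelial cells held 14519, 12149.9 and 12547 CPM in AML and 15082, 13628 and 12364 CPM in Control. Venous and lymphatic markers are given beside the results they touch. Of markers of other lineages, all 10 lymphoid markers had no UMI. Of 10 myeloid markers 5 had UMIs (Csf1r, Itgam, Marco, Fcgr3 and Tyrobp were at 0), and the list summed to 49.3, 51.0 and 41.0 CPM in AML, against 41.1, 11.1 and 40.1 CPM in Control. The leukaemia and blood progenitor list had Gata1, Mpo, Elane, Myb, Klf1 and Car1 at 0 and summed to 807, 452 and 521 CPM in AML, against 689, 481 and 655 CPM in Control. Kit is on this list too, and other endothelial cells held more of the list, 1402, 1252 and 1101 CPM in AML and 1494, 1346 and 1289 CPM in Control. The 10 fibroblast markers summed to 1102, 25.5 and 111 CPM in AML, against 58.7, 94.4 and 96.6 CPM in Control, and the sum was highest in AML 1. AML 1 also held the lymphatic gene Mmrn1 at 229 CPM, while its median over the 6 libraries was 0. The part of these cells in the results was not tested.

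Bmx, a cytoplasmic tyrosine kinase, was found in 211 of the 246 cells, Gja5 in 143 and the Wnt antagonist Dkk2 in 49. Bmx was the only one of these in 93 cells, Gja5 and Bmx occurred together in 79, all 3 genes in 31, and Gja5 alone in 25. Of the members, 99 had exactly 2 of these UMIs (49 AML, 50 Control), 65 had 3 or 4 (27 AML, 38 Control) and 82 had 5 or more (27 AML, 55 Control). Just outside the threshold, 328 cells had a single one (187 AML, 141 Control).

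The members were not uniform. Genes outside the rule differed with the number of these UMIs, and genes known from arteries went both ways. Mgp, an inhibitor of vessel wall calcification, had 1574 CPM in AML cells with 1 UMI, then 2502, 5597 and 15508 CPM in members with 2, with 3 or 4 and with 5 or more. In Control cells it had 453 CPM with 1 UMI, then 575, 3683 and 10259 CPM. The capillary gene Gpihbp1 ran the other way. It had 1985 CPM in AML cells with 1 UMI and 1541, 749 and 62.3 CPM in these member classes, and in Control cells 1437, 1158, 861 and 235 CPM in the same order. In both genes the cells that just met the rule lay closer to those just outside it than to those with 5 or more UMIs. The classes also differ in depth: the median member had 3955 UMIs in AML and 6480.5 in Control with 2 of these UMIs, and 5869 in AML and 12529 in Control with 5 or more. Arterial identity genes did not all follow Mgp. In the same order of classes, the chemokine gene Cxcl12 had 893, 980.0, 575 and 215 CPM in AML cells and 909, 1398, 1048 and 356 CPM in Control cells. Its pooled level was lowest with 5 or more UMIs in both groups, but not in AML 2 or Control 1 taken alone. Sox17, a transcription factor of arterial fate, had 180.0, 146, 129 and 119 CPM in AML and 193, 133, 143 and 108 CPM in Control. Hey1, a target of Notch, had 206, 105, 129 and 108 CPM in AML and 313, 297, 151 and 139 CPM in Control. The Eph ligand Efnb2 had 653, 720.2, 497 and 487 CPM in AML and 1095, 1253, 934 and 693 CPM in Control. All 3 pooled levels were lower in cells with 5 or more of these UMIs than in cells with 1, in both groups. Single libraries went the other way. All 3 rose in AML 2, and Sox17 rose in Control 3, from 154 to 212 CPM. Apart from these library values, the levels by class are pooled sums over cells of a group, with no test.

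**Figure D1:**
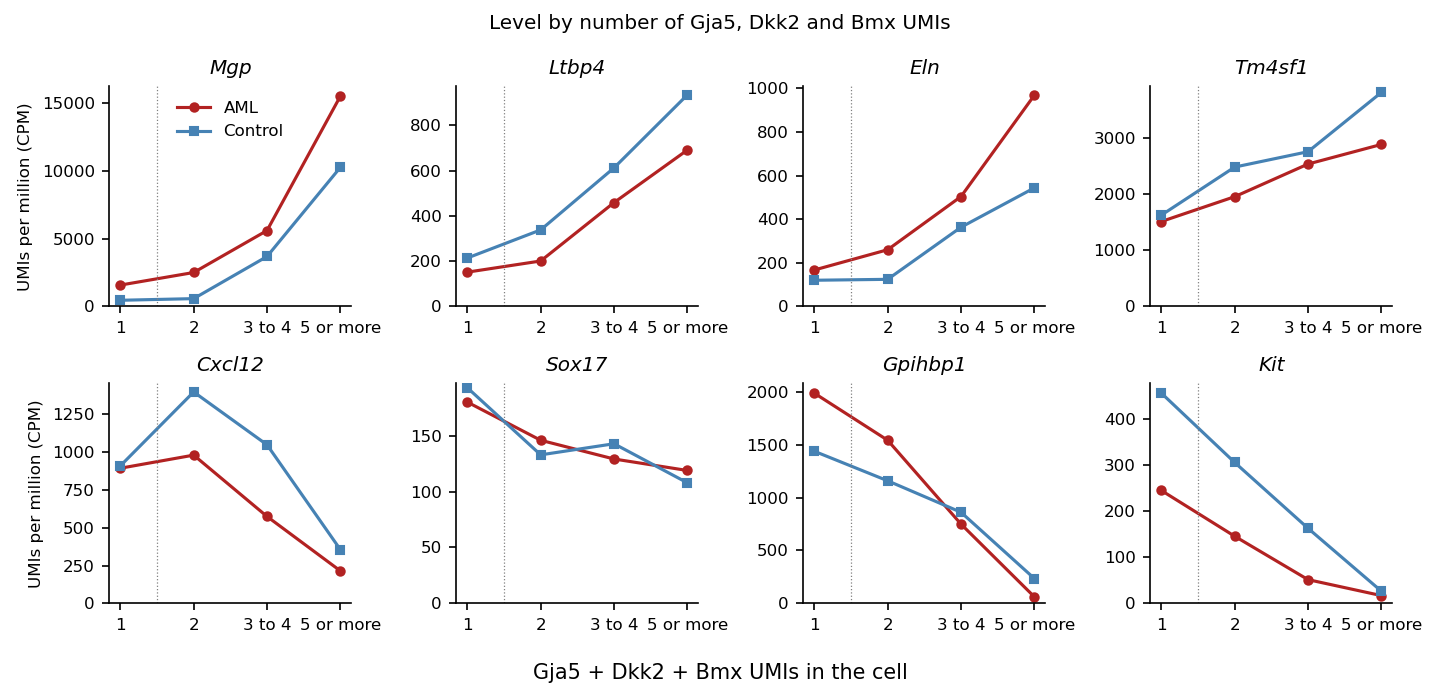
Pooled level (CPM, linear axis) of 8 genes in AML and Control endothelial cells, by the summed UMIs of Gja5, Dkk2 and Bmx in the cell. The dotted line marks the threshold of 2. Pooled levels of Mgp, Ltbp4, Eln and Tm4sf1 were highest in cells with 5 or more of these UMIs, in AML and in Control. Those of Cxcl12, Sox17, Gpihbp1 and Kit were lowest there in both groups. Single libraries did not all follow, as in Cxcl12 and Sox17.

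Mgp and Gpihbp1 also divided the cells. Mgp without Gpihbp1 was read in 101 of the 246 members (41.1%), Gpihbp1 without Mgp in 98 (39.8%), both in 40 and neither in 7. Among AML members 48 of 103 had Mgp only and 33 had Gpihbp1 only, against 53 and 65 of the 143 Control members. The UMIs of Mgp were uneven: the 5 highest cells held 46.5%, 49.2% and 61.7% of them in the AML libraries, against 90.1%, 51.4% and 48.1% in the Control libraries. In Control 1, whose Mgp level was lowest, 11 of 29 cells had any Mgp, and its members were the deepest.

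Arterial cells made up 1.36% (0.989 to 1.83%), 1.02% (0.674 to 1.48%) and 0.890% (0.614 to 1.25%) of all endothelial cells, venous cells and aerocytes included, in the AML libraries, against 2.20% (1.48 to 3.14%), 1.84% (1.39 to 2.38%) and 2.13% (1.62 to 2.74%) in the Control libraries (exact Clopper-Pearson 95% binomial intervals, which cover counting error only). The mean share was 1.09 ± 0.245% in AML and 2.05 ± 0.192% in Control (SD, n = 3 each), a difference of -0.961 percentage points. All AML shares lay below all Control shares, and the exact two-sided permutation p was 0.1, the smallest that 3 against 3 libraries can give. Because the rule counts UMIs and Control cells were deeper, the share was also taken with cells thinned to 3000 UMIs. Cells with fewer UMIs dropped out. Endothelial cells fell from 3151, 2643 and 3706 to 2141, 1926 and 1886 in the AML libraries. In the Control libraries they fell from 1319, 3051 and 2728 to 1056, 2491 and 2211, so the thinned cells are a deeper selection. The share was then 1.45, 0.675 and 0.795% in AML, against 0.852, 1.49 and 1.49% in Control. The groups overlapped, with a difference of -0.304 points and an exact permutation p of 0.2. The sort also sets which cells were available, so these are shares of the sorted cells.

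To check the name and to see what sets the arterial cells apart, their sums were compared with those of 11583 other endothelial cells of the same libraries, which passed the same filters with 0 UMIs of Gja5, Dkk2 and Bmx. The same exclusions held, so cells with UMIs of the venous gene Slc6a2 or the aerocyte genes Ednrb or Fibin were in neither class. The comparison is therefore not with the whole endothelium. Since the rule picks cells by arterial genes, genes that go with these were bound to differ, so the values describe which ones and by how much, and no p here bears on what the cells are. In edgeR's quasi-likelihood test with the library as a block, 2328 of 11282 genes (20.6%) differed at an adjusted p under 0.05: 1115 were higher in arterial cells (9.88%) and 1213 were lower (10.8%), the genes of the rule left out. The number fell to 1006 when as many other cells as arterial cells were drawn from each library, and to 1323 with cells thinned to 3000 UMIs. Epithelial markers moved with this contrast: the 8 alveolar type 2 markers summed to 193, 204 and 187 CPM (AML) and 269.9, 124 and 356 CPM (Control) in arterial cells, against 1411, 747 and 494 CPM (AML) and 1182, 176 and 5140.1 CPM (Control) in other endothelial cells. Of 9 fibroblast markers tested, 7 had a log2 difference above 0 (median 1.36), and Pi16 passed as higher. The 6 smooth muscle markers tested had a median of 0.54, and none passed. The 8 on that list summed to 139, 433 and 644 CPM (AML) and 185, 276 and 323 CPM (Control) in arterial cells. In other endothelial cells they summed to 117, 189 and 163 CPM (AML) and 398, 139 and 223 CPM (Control). The part of these lineages in the differences was not tested.

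Of 20 arterial identity genes 12 were higher in arterial cells and 4 were lower, beside 9.88% and 10.8% of all genes. Their median log2 difference was 0.77, beside -0.07 over all genes tested. Mgp had 2182 to 10931 CPM (median 6729.9) in the arterial sums of the 6 libraries, against 26.9 to 398 CPM (median 72.5) in other endothelial sums. The elastic fibre organiser Ltbp4 had 363 to 788 CPM (median 563), against 14.4 to 67.3 CPM (median 30). In both genes the lowest arterial library lay above the highest other library. Tm4sf1, a tetraspanin-like protein of endothelial membranes, differed by 1.72 ± 0.11 (log2 ± SE), the gap junction gene Gja4 by 1.24 ± 0.22, the transcription factor Sox18 by 0.85 ± 0.20, Sema3g by 0.56 ± 0.11 and Efnb2, which marks arteries from early development, by 0.41 ± 0.10.

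A marker of the label went against it. Sox17 had 67.5 to 193 CPM (median 119) in arterial cells, against 215 to 298 CPM (median 231) in other endothelial cells, a log2 difference of -0.96 ± 0.14 that was below 0 in all 6 libraries. Cells with at least 3000 UMIs were also thinned to 3000. Of these, 29.1% of AML and 25% of Control arterial cells had a Sox17 UMI, against 48.3% and 44.1% of other endothelial cells. In epithelial cells, which should lack it, the share was at most 0.268% in either group. Sox7, Tbx3 and Epas1 were also lower in arterial cells. Hey1, Cxcl12, Nrp1 and Prdm16, also on the list, did not pass. The name arterial rests on the genes of the rule, which cannot test it, and Sox17 does not mark the cells here.

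Elastic fibre genes were mostly higher in arterial cells: 11 of 19 tested were higher and 1 was lower, beside 9.88% and 10.8% of all genes. Their median log2 difference was 2.79. Mgp, Ltbp4 and Fbln5 stand on this list and on the arterial identity list. Elastin itself (Eln) had 242 to 822 CPM (median 451), against 28.0 to 132 CPM (median 67.6) in other endothelial cells. Fbln2, a fibulin that joins elastin to basement membrane, had 117 to 331 CPM (median 225), against 2.67 to 12.1 CPM (median 6.68). Fbln5, which tethers elastin to cells, had 29.3 to 279 CPM (median 157), against 2.09 to 9.76 CPM (median 4.44). These values do not overlap. The microfibril gene Fbn1 differed by 3.32 ± 0.35 (log2 ± SE), the cross-linking enzyme Lox by 4.74 ± 0.49, and the fibulin Efemp1 by 4.68 ± 0.48. The gene called lower was Mfap2, a small microfibril protein, at -2.13 ± 0.15. Of the 19 tested, 4 had a log2 difference below 0, 3 of them at an unadjusted p under 0.05 in edgeR's test. The part of fibroblast and smooth muscle RNA in these values was not tested. In the basement membrane list 7 of 14 genes were higher and 4 lower, beside 9.88% and 10.8% of all genes. The higher ones were the laminin chains Lama3, Lama4, Lama5, Lamb1, Lamb2 and Lamc1, and perlecan (Hspg2, 3.67 ± 0.39). Type IV collagen was lower, with Col4a1 at -1.69 ± 0.21 and Col4a2 at -1.72 ± 0.19.

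**Figure D2:**
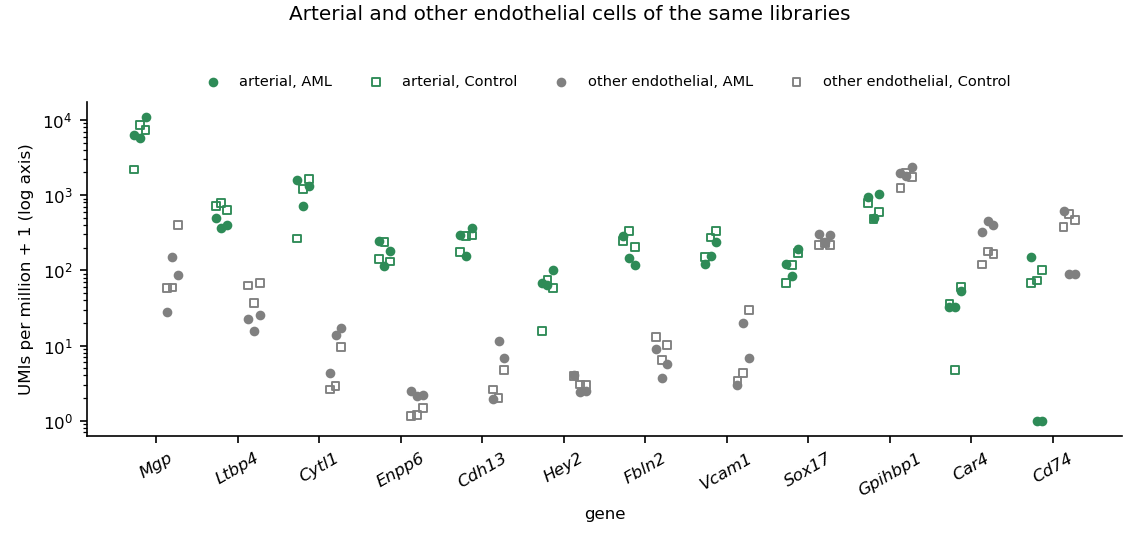
Level in each library (CPM plus 1, log axis) of 12 genes in arterial cells (green) and in other endothelial cells (grey), filled circles for AML and open squares for Control libraries. Mgp, Ltbp4, Cytl1, Enpp6, Cdh13, Hey2, Fbln2 and Vcam1 lay higher in arterial cells of all 6 libraries, and Sox17, Gpihbp1, Car4 and Cd74 lay lower.

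The largest differences belonged to genes close to absent from other endothelial cells. Sfrp1, a secreted Wnt inhibitor, had 52.8 to 242 CPM (median 102) in arterial cells, against 0 to 0.618 CPM (median 0.274) in other cells. Enpp6, a choline phosphodiesterase, had 115 to 242 CPM (median 161), against 0.161 to 1.51 CPM (median 0.827). Cytl1, a secreted cytokine-like protein, was among the more abundant, with 264 to 1624 CPM (median 1259), against 1.61 to 15.9 CPM (median 5.94). The adhesion molecule Cdh13 had 153 to 369 CPM (median 287), against 0.927 to 10.6 CPM (median 2.66). Ccdc80, the secreted protease Htra1, Olfm2 and the parathyroid hormone-related peptide gene Pthlh completed the set, with log2 differences between 6.17 and 6.69. The retinoid-binding gene Rbp7 was higher in all 6 libraries but uneven: 1089, 25.5 and 11.7 CPM in the AML libraries and 293, 1229 and 160.2 CPM in the Control libraries, so AML 1 and Control 2 lay far above the others. Among those lower by most were the apelin receptor Aplnr (-3.43 ± 0.32), the carbonic anhydrases Car14 (-3.53 ± 0.31) and Car4 (-2.77 ± 0.46), the muscarinic receptor Chrm2 (-3.27 ± 0.31), the chemokine-scavenging receptor Ackr2 (-3.25 ± 0.25), Prx (-2.94 ± 0.27), Sox11, Ttc39c and Tspan8. A copy of the chemokine gene Ccl21a was also among these, but its near-identical copies share reads, so its value is uncertain.

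Notch genes went both ways among receptors, ligands and targets, and their median was 0.03. Of 22 tested, 7 were higher and 4 lower, beside 9.88% and 10.8% of all genes. Among receptors, Notch1 had 372 to 689 CPM (median 489), against 231 to 435 CPM (median 273), and was higher in all 6 libraries, while Notch4 differed by -0.41 ± 0.14. Among ligands, Dll4 (0.96 ± 0.14) and Jag1 (0.69 ± 0.17) were higher, and Dll1 (-0.99 ± 0.16) was lower. Among targets, Hey2 stood out with 14.7 to 99.5 CPM (median 65.5), against 1.39 to 3.01 CPM (median 2.0). The feedback gene Nrarp was higher (1.42 ± 0.15), Hes1 was lower (-1.26 ± 0.24), and Hey1 did not pass (0.05 ± 0.16). The calls of Notch4 and Jag1 did not hold in limma's test of the differences within libraries (adjusted p = 0.0904 and 0.0733).

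Genes that act on vessel tone divided as well, with 8 of 29 higher and 12 lower, beside 9.88% and 10.8% of all genes. The nitric oxide synthase Nos3 had 79.6 to 152 CPM (median 89.4), against 20.9 to 47.7 CPM (median 29.7). Gucy1a1, a subunit of the nitric oxide receptor, had 53.7 to 80.7 CPM (median 64.5), against 12.1 to 39.1 CPM (median 23.7). The prostacyclin synthase Ptgis was higher (2.34 ± 0.29), as was the calcium-gated potassium channel Kcnn4 (6.25 ± 0.58). Calcrl, which binds adrenomedullin with Ramp2, was lower (-0.89 ± 0.11), as was the natriuretic peptide clearance receptor Npr3 (-1.41 ± 0.12), while the natriuretic peptide receptor Npr1 did not pass (-0.14 ± 0.15). The cyclooxygenase Ptgs1 was lower too (-1.63 ± 0.16). Endothelin 1 (Edn1, 0.81 ± 0.62) and angiotensin-converting enzyme (Ace, -0.01 ± 0.10) did not pass.

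Of 16 leukocyte adhesion genes 7 were higher and 1 was lower, beside 9.88% and 10.8% of all genes. Vcam1 had 121 to 332 CPM (median 194), against 1.97 to 28.7 CPM (median 4.61), and P-selectin (Selp) had 38.1 to 79.6 CPM (median 76.3), against 0 to 11.6 CPM (median 0.666). Both were higher in all 6 libraries. In the complement and coagulation list 7 of 21 were higher and 4 lower, beside 9.88% and 10.8% of all genes. Among the higher were von Willebrand factor (Vwf, 3.34 ± 0.13) and tissue plasminogen activator (Plat, 2.18 ± 0.51). Thrombomodulin (Thbd) was lower (-1.54 ± 0.26). Veins also hold Vwf, Vcam1 and Selp, and cells with Slc6a2 UMIs were not among the other endothelial cells. Of the 8 venous markers Vwf, Vcam1, Eln and Amigo2 were higher, Prss23 (-1.60 ± 0.17) and Ephb4 (-0.95 ± 0.15) were lower, and the other two did not pass. The list summed to 2899, 3938 and 2861 CPM (AML) and 2235, 2720.3 and 2177 CPM (Control) in arterial cells, against 914, 1007 and 1024 CPM (AML) and 739, 614 and 682 CPM (Control) in other cells. The part of venous cells without Slc6a2 UMIs was not tested. In the BMP and TGF-beta list Bmp4 (2.55 ± 0.46), the pathway inhibitor Smad6 (1.01 ± 0.15) and the target Id2 (1.27 ± 0.22) were higher, and the receptor Bmpr2 (-0.51 ± 0.10) was lower.

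Antigen presentation genes were lower in arterial cells. All 7 MHC class II genes tested were lower, beside 10.8% of all genes, with a median log2 difference of -2.12. H2-Aa, an alpha chain, had 12.7 to 94.1 CPM (median 48.8), against 48.9 to 361 CPM (median 248), and was lower in all 6 libraries. The invariant chain Cd74 had 148, 0 and 0 CPM in AML and 67.5, 72.2 and 99 CPM in Control arterial cells, a log2 difference of -2.52 ± 0.19, but limma's test within libraries did not call it (adjusted p = 0.0601). Of 20 MHC class I genes 11 were lower and none higher, beside 10.8% and 9.88% of all genes. They differed by less: H2-K1 had 532 to 1322 CPM (median 1067), against 1057 to 2291 CPM (median 1984), and B2m differed by -0.76 ± 0.10. Of 26 type I interferon genes 9 were lower and 1 (Bst2) was higher, beside 10.8% and 9.88% of all genes. The lipid uptake genes Gpihbp1 (-1.36 ± 0.19), Lpl (-1.18 ± 0.24) and Cd36 (-1.05 ± 0.10) were lower as well, while apolipoprotein E (Apoe) had 280.4 to 1088 CPM (median 429), against 13.8 to 60.3 CPM (median 17.5). H2 genes are near-identical in places, so reads may be split between them.

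The AML and Control libraries were compared within arterial cells. Of 4478 genes tested, 6 passed an adjusted p of 0.05 (0.134%) in edgeR's quasi-likelihood test. Ucp2, Mt2, Ly6c1 and Cirbp were higher in AML (0.0893%), and Hspa1a and Sox4 were lower (0.0447%). In other endothelial cells 132 of 11771 genes passed (1.12%), from many more cells. At an unadjusted p under 0.05 there were 408 (9.11%), 176 higher (3.93%) and 232 lower (5.18%), and in 757 genes (16.9%) the 3 AML values and the 3 Control values did not overlap. The median log2 change over all genes tested was 0.01. Leaving out a library decided the calls: the count was 0 without AML 3, 1 without Control 1 and 2 without AML 2, against 51 without AML 1, 33 without Control 2 and 27 without Control 3. Without AML 3 the adjusted p of the 6 genes lay between 0.0624 and 0.238. All 6 kept their direction in every alternative that could fit them.

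Ucp2, a mitochondrial carrier (chr7:100493337-100502020, + strand, GRCm38), had 578, 1071 and 1100.1 CPM in the AML libraries, against 267, 235 and 181 CPM in the Control libraries. The lowest AML library lay above the highest Control library, and the log2 change was 2.02 ± 0.31 (SE; adjusted p = 0.00255). Other endothelial cells of the same libraries held more of it, 1592, 2528 and 2567 CPM in AML and 794, 1050.2 and 627 CPM in Control, and changed in the same direction (log2 1.47, adjusted p = 0.0485). Ly6c1 (chr15:75044018-75048830, - strand), a surface antigen of lung capillaries, had 2545, 5474 and 4061 CPM in the AML libraries, against 1000.3, 1477 and 1053 CPM in the Control libraries. The log2 change was 1.78 ± 0.32 (adjusted p = 0.00886), and in other endothelial cells 2.21 (adjusted p = 0.043). Reads of Ly6 copies can be shared. Its neighbour Ly6a did not pass (1.18 ± 0.30, adjusted p = 0.0952), although its values did not overlap: 4024, 6946 and 4851 CPM in the AML libraries, against 2197, 2511 and 2316 CPM in the Control libraries. Cirbp (chr10:80165985-80172786, + strand), an RNA-binding protein that is made at low temperature, had 85.1, 280.4 and 222 CPM in the AML libraries, against 23.5, 49.97 and 47.1 CPM in the Control libraries, a log2 change of 2.21 ± 0.40 (adjusted p = 0.0174). Rbm3, the other gene of the cold-inducible list, had 399, 663 and 573 CPM in the AML libraries, against 132, 296 and 238 CPM in the Control libraries and did not pass (1.29 ± 0.31, adjusted p = 0.0952). AML 1 was the lowest AML library in each of these genes, and it was also the one with the highest fibroblast marker sum. A link between these was not tested.

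The metallothioneins bind zinc and copper and are made when free metal or glucocorticoid rises. Mt2 (chr8:94172664-94173568, + strand) had 76.2, 217 and 239.9 CPM in the AML libraries, against 32.3, 20.4 and 30.6 CPM in the Control libraries, with a log2 change of 2.67 ± 0.40 (adjusted p = 0.00255). Mt1, next to it on the chromosome, had 264, 886 and 884 CPM in the AML libraries, against 46.9, 148 and 144 CPM in the Control libraries. Its log2 change was 2.56 ± 0.56, but it did not pass (adjusted p = 0.16). In neither gene did the groups overlap. Mesenchymal cells of the AML libraries held 457 CPM of Mt2, 2.57 times the arterial mean, and blood cells 445 CPM. The part of free RNA in the change was not tested. In other endothelial cells Mt2 had 3.01, 160.3 and 28.0 CPM in AML and 0.965, 15.2 and 5.68 CPM in Control, so AML 2 carried most of it there. The windows from 250 bases before to 50 bases after each RefSeq start (GRCm38.p6) are shown because the genes lie side by side and both hold the letters of a metal response element, TGCGCNC or TGCACNC on either strand, in capitals. This motif was chosen after the values were seen. Mt2 (chr8:94172368-94172667, + strand) holds it 4 times and Mt1 (chr8:94178839-94179138, + strand) 3 times, none overlapping another motif searched. At least 1 match is found in 25.7% of all 32851 windows, so a match is a description only.
Mt2: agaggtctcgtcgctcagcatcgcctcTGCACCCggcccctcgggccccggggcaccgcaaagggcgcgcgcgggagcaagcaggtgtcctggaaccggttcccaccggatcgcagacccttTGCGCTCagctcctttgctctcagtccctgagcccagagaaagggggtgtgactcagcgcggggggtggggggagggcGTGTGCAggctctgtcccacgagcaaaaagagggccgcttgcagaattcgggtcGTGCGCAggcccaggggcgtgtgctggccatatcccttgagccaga
Mt1: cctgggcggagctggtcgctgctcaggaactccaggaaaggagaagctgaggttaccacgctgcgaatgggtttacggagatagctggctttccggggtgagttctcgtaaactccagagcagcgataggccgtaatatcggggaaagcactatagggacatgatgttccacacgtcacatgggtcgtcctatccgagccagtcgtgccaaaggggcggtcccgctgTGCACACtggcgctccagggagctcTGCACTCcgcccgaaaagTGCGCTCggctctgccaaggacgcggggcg

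Hspa1a (chr17:34969190-34972156, - strand), an inducible cytosolic chaperone of the HSP70 family, had 22.4, 25.5 and 35.1 CPM in the AML libraries, against 144, 102 and 134 CPM in the Control libraries. The highest AML value was far below the lowest Control value, and the log2 change was -2.18 ± 0.38 (adjusted p = 0.00886). It was -2.60 in other endothelial cells (adjusted p = 0.00654). Hspa1b is a near-identical copy beside it, so reads may be split between them. It had 40.3, 19.1 and 29.3 CPM in the AML libraries, against 106, 55.5 and 87.2 CPM in the Control libraries and did not pass (-1.40 ± 0.42, adjusted p = 0.215). Their sum was 62.7, 44.6 and 64.4 CPM in AML, against 249, 157 and 222 CPM in Control. Among arterial cells with at least 3 UMIs of the rule, Hspa1a did not pass (adjusted p = 0.212), nor did Sox4 (adjusted p = 0.387). The heat shock factor binds paired repeats, and the window before the Hspa1a start (chr17:34972107-34972406, - strand) holds GAANNTTC, which reads the same on both strands, once, shown in capitals. It is identical to the Hspa1b window in 296 of 300 bases.
Hspa1a: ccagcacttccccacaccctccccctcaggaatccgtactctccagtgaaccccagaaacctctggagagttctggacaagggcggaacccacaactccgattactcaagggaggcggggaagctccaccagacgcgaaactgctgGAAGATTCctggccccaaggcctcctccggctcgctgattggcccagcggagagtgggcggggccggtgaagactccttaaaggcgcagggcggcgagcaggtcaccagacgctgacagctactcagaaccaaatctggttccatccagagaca

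This motif was in the windows of 11 of 17 cytosolic chaperone genes with a RefSeq window (64.7%), against 9.04% of all genes. The list was made of heat shock genes, so this share describes the list and not the AML change. Other motifs searched in other lists had shares above and below those of all genes. Of 15 cytosolic heat shock chaperones tested, Hspa1a was the one that passed. The list's median log2 change was -0.72, against 0.01 over all genes, and in 9 of 15 the AML values lay wholly below the Control values, beside 8.55% of all genes. Hspa8, the constitutive HSP70, had 851, 695 and 655 CPM in the AML libraries, against 1652, 1373 and 1508 CPM in the Control libraries (log2 -1.03 ± 0.27, adjusted p = 0.129). Its partner Dnaja1 had 341, 261 and 334 CPM in the AML libraries, against 698, 576 and 846 CPM in the Control libraries (log2 -1.17 ± 0.28, adjusted p = 0.0952). The small heat shock gene Hspb1 went the other way with overlapping values, 412, 771 and 1229 CPM in the AML libraries, against 496, 476 and 646 CPM in the Control libraries. In other endothelial cells the median of the list was -0.59. The 16 dissociation stress genes tested, which include Fos and Jun, had a median of -0.39 in arterial cells and 0.19 in other endothelial cells, and none passed in arterial cells. In all 16 the AML minus Control change was lower in arterial than in other endothelial cells (median difference -0.45, beside -0.07 over all genes), and Atf3 (-1.44 ± 0.34) and Nr4a1 (-2.94 ± 0.45) passed the test of that difference, beside 0.443% of all genes in that direction. The part of tissue handling in the chaperone values was not tested. Sox4 (chr13:28948919-28953713, - strand), a transcription factor of immature and activated cells, had 35.9, 44.6 and 35.1 CPM in the AML libraries, against 238, 117 and 120.2 CPM in the Control libraries, a log2 change of -2.01 ± 0.38 (adjusted p = 0.0158). The AML values lay close together, and Control 1 was the highest Control library. In other endothelial cells the change was -1.16 (adjusted p = 0.0529).

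**Figure D3:**
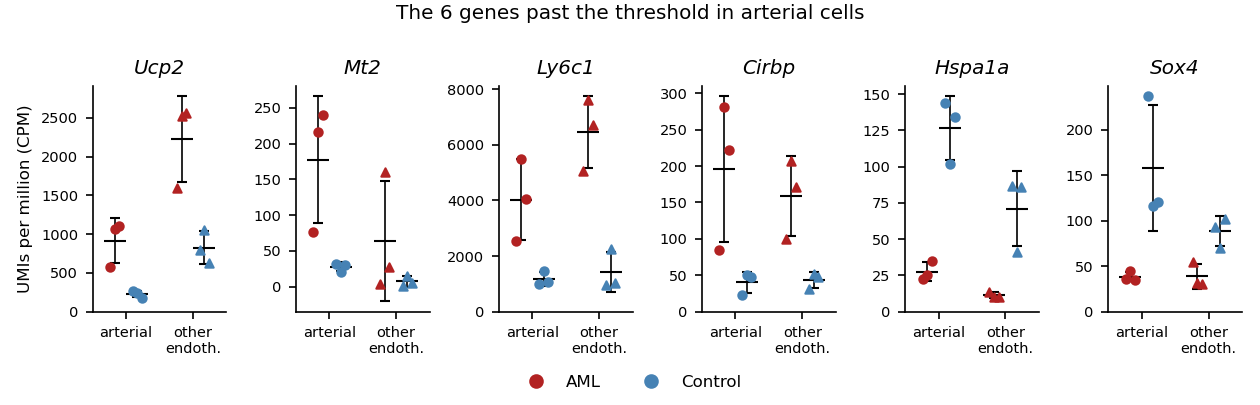
Level in each library (CPM, linear axes that differ by gene) of the 6 genes past the threshold, in arterial cells (circles) and other endothelial cells (triangles), AML left of Control. Bars give mean and SD of 3 libraries. In arterial cells the AML and Control values of all 6 genes do not overlap.

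A further 20 genes had the lowest unadjusted p without passing. On the higher side, Mgll, which degrades monoacylglycerol, had 475, 401 and 503 CPM in the AML libraries, against 194, 246 and 113 CPM in the Control libraries (log2 1.32 ± 0.30, adjusted p = 0.0817), and Lyve1, a hyaluronan receptor best known from lymphatic vessels, had 3572, 8488 and 6495 CPM in the AML libraries, against 2224, 3377 and 2088 CPM in the Control libraries (log2 1.28 ± 0.33, adjusted p = 0.117). The lymphatic factor Prox1 had a median of 0 CPM and at most 8.96 CPM in these sums, and Pdpn was at 0 in all 6 libraries. The 7 lymphatic markers, Lyve1 among them, summed to 3889.8, 8527 and 6525 CPM in AML, against 2273, 3418 and 2126 CPM in Control, most of it Lyve1, and the part of lymphatic cells was not tested. Cd24a, Ebf1, Myrip, Ctps, Cnpy4, Rbm3, Ly6a and Mt1 made up the rest, with adjusted p between 0.0952 and 0.177. On the lower side, the guanine nucleotide exchange factors Mcf2l (58.3, 6.37 and 52.7 CPM in AML, against 194, 128 and 127 CPM in Control) and Rasgrp3, the chromatin remodeller Smarca2 (327, 127 and 199 CPM in AML, against 719, 483 and 448 CPM in Control), the scavenger receptor Stab1, the interferon-inducible Mndal, the helicase Ddx17, Ivns1abp, Rnf144a, Zfp704 and Dnaja1 had adjusted p between 0.0817 and 0.0952. Mndal stood at 279 CPM in blood cells of Control, 2.57 times the arterial mean of Control. The rule for naming them required that the AML and Control values do not overlap.

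No gene of the arterial identity list passed between AML and Control. Its 18 tested members had a median log2 change of -0.31, and 5 had all AML values below all Control values, beside 8.55% of all genes. Mgp overlapped and showed no difference detectable at this depth: 6211, 5748 and 10931 CPM in the AML libraries, against 2182, 8527 and 7249 CPM in the Control libraries, a log2 change of 0.36 ± 0.42 with adjusted p = 0.833. Ltbp4 had 497, 363 and 404 CPM in the AML libraries, against 707, 788 and 629 CPM in the Control libraries, without overlap, and did not pass (log2 -0.74 ± 0.27, adjusted p = 0.368). Dll4 had 184, 25.5 and 105 CPM in the AML libraries, against 211, 187 and 214 CPM in the Control libraries (log2 -0.89 ± 0.39, adjusted p = 0.472), with AML 2 far below the rest. Hey1 had 148, 76.5 and 99.5 CPM in the AML libraries, against 205, 170.3 and 181 CPM in the Control libraries (log2 -0.74 ± 0.29, adjusted p = 0.377). The 15 Notch genes tested had a median of -0.21 and the 11 elastic fibre genes one of 0.22. Eln had 242, 822 and 719.7 CPM in the AML libraries, against 249, 448 and 455 CPM in the Control libraries (adjusted p = 0.635), with overlap.

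**Figure D4:**
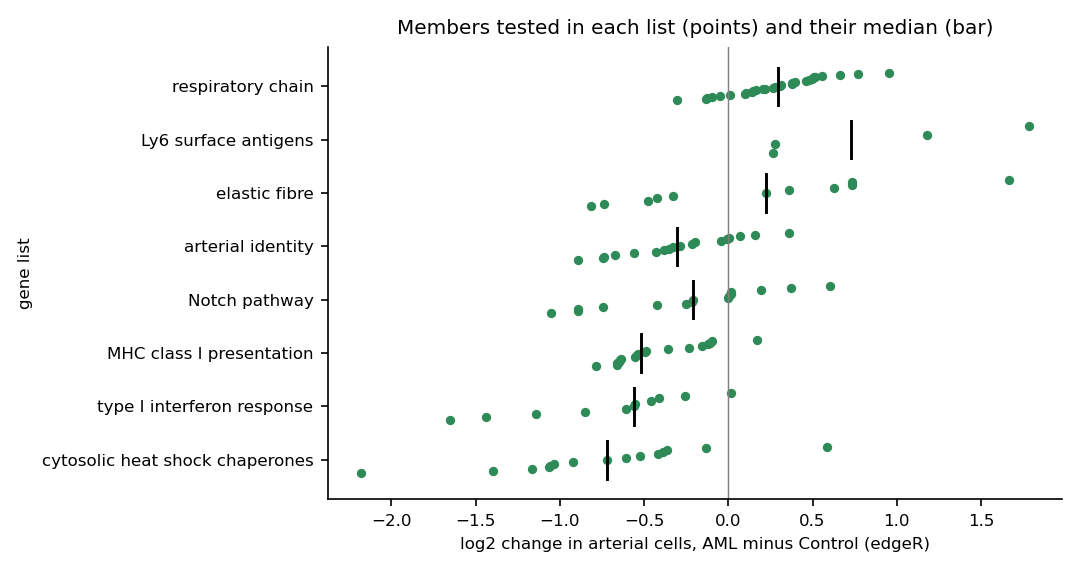
Log2 change, AML minus Control, in arterial cells (edgeR) for every tested member of 8 gene lists. Each point is a gene and each bar the list's median. The medians ran from -0.72 for the cytosolic heat shock chaperones to 0.73 for the Ly6 surface antigens, and only Hspa1a and Ly6c1 among these points passed the threshold.

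The other lists held few or no calls. Of 18 MHC class I genes tested none passed, with a median of -0.52. B2m had 1828, 784 and 901 CPM in the AML libraries, against 1722, 1873 and 1942 CPM in the Control libraries (log2 -0.65 ± 0.31, adjusted p = 0.531). Of 11 type I interferon genes none passed, with a median of -0.56. Other endothelial cells had medians of -0.53 and -0.74 for these lists. Of 30 respiratory chain genes none passed. Their median was 0.29, and in 10 all AML values lay above all Control values, beside 8.35% of all genes. Of 19 hypoxia and glycolysis genes none passed, with a median of 0.12; Vegfa had 327, 249 and 281 CPM in the AML libraries, against 642, 402 and 539.6 CPM in the Control libraries (log2 -0.87 ± 0.28, adjusted p = 0.28). Among vasoactive genes, Edn1, the vasoconstrictor endothelin 1, had 444, 1275 and 1317 CPM in the AML libraries, against 317, 492 and 622 CPM in the Control libraries (log2 1.09 ± 0.37, adjusted p = 0.345), and AML 1 lay among the Control values. The natriuretic peptide receptor Npr1 had 35.9, 63.7 and 64.4 CPM in the AML libraries, against 141, 99.9 and 113 CPM in the Control libraries, without overlap (log2 -1.12 ± 0.34, adjusted p = 0.215). No leukocyte adhesion gene passed. Vcam1 had 121, 153 and 234 CPM in the AML libraries, against 149.6, 272 and 332 CPM in the Control libraries, and Icam1 had 58.3, 408 and 140.4 CPM in the AML libraries, against 149.6, 122 and 169.7 CPM in the Control libraries, both with overlap.

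Whether AML went with a different change in arterial cells than in other endothelial cells was tested as an interaction with the library as a block. Of 11282 genes 76 passed (0.674%), 26 with a higher (0.23%) and 50 with a lower (0.443%) change in arterial cells. At an unadjusted p under 0.05 there were 824 (7.3%), 303 higher (2.69%) and 521 lower (4.62%). With DESeq2 size factors the split was 34 higher and 42 lower. These calls depend on the test: limma on the differences within libraries called 2 genes, Timp3 and Syn3, and a draw of as many other cells as arterial cells left 4, Timp3, Bhlhe40, Marcks and Abi3bp. Both checks were added after the data were seen, because the joint fit's dispersion (0.0177) was below that of the arterial sums alone (0.0541). DESeq2 called 16, and cells thinned to 3000 UMIs gave 13. Among the 26 higher in edgeR's test were the fibroblast markers Col1a1 and Col3a1, 2 of 9 tested, beside 0.23% of all genes. The median of that list was 3.11, beside -0.07 over all genes. Its sum in AML arterial cells was 1102 CPM in AML 1, against 25.5 in AML 2 and 111 in AML 3. The part of fibroblast RNA in the interaction calls was not tested.

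Timp3 (chr10:86300372-86349506, + strand), an inhibitor of matrix proteases, was called by edgeR, by limma and with matched cell numbers. Arterial cells had 1076, 2702 and 1984 CPM in AML and 1634, 1203 and 1159 CPM in Control, with overlap and no call (log2 0.54 ± 0.32, adjusted p = 0.607). Other endothelial cells had 823, 2768 and 1738 CPM in AML and 474, 355 and 376 CPM in Control, without overlap (log2 2.20, adjusted p = 0.043). The interaction was -1.62 ± 0.19 (adjusted p = 5.77e-14; 0.00581 by limma and 0.00119 with matched cell numbers). Timp3 lies within the synapsin gene Syn3 (chr10:86055125-86498896, - strand), whose interaction was -2.80 ± 0.37, and whether the counting used strand is not given in the sources used here, so reads of these genes may not be separable. Marcks, an actin-binding substrate of protein kinase C, had 511, 726 and 1006 CPM in AML and 546, 585 and 485 CPM in Control in arterial cells and 1409, 2632 and 2978 CPM in AML and 867, 941 and 767 CPM in Control in other endothelial cells. The groups overlapped in the first and not in the second (interaction -1.03 ± 0.20). Bhlhe40, a transcriptional repressor of the clock and of hypoxia, had 58.3, 31.9 and 105 CPM in AML and 123, 74.0 and 127 CPM in Control in arterial cells, against 41.3, 71.9 and 137 CPM in AML and 25.9, 20.0 and 22.1 CPM in Control in other endothelial cells (interaction -2.57 ± 0.32). Abi3bp, a matrix protein, ran the other way: 757, 873 and 597 CPM in AML and 578, 740.2 and 346 CPM in Control in arterial cells and 122, 97.3 and 131 CPM in AML and 223, 219 and 231 CPM in Control in other endothelial cells (interaction 1.34 ± 0.20).

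**Figure D5:**
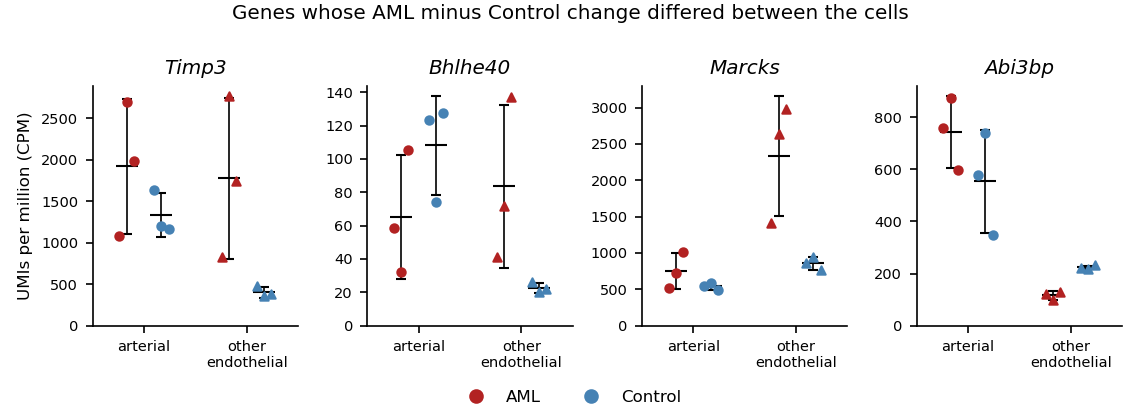
Level in each library (CPM, linear axes that differ by gene) of Timp3, Bhlhe40, Marcks and Abi3bp in arterial cells (circles) and other endothelial cells (triangles), AML left of Control. Bars give mean and SD of 3 libraries. In other endothelial cells the AML and Control values do not overlap in any of the 4 genes, and in arterial cells they overlap in Timp3, Bhlhe40, Marcks and Abi3bp.

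The 6 genes called in arterial cells did not pass this test. Their interaction terms were 0.47 ± 0.20 for Ucp2, -0.62 ± 0.18 for Ly6c1, 0.28 ± 0.29 for Cirbp, 0.17 ± 1.84 for Mt2, 0.29 ± 0.44 for Hspa1a and -0.90 ± 0.35 for Sox4 (log2 ± SE), with adjusted p between 0.0738 and 0.999. This does not show that both cell classes changed alike, and for Mt2 the error of the term is large beside its change in arterial cells. Hspa1b, which did not pass in arterial cells, had an interaction of 1.85 ± 0.47 (adjusted p = 0.0202).

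BMP ligands and their SMADs set endothelial quiescence in lung arteries. Of 20 genes of the BMP and TGF-beta list 5 passed the interaction test, beside 0.674% of all genes. The list's median was 0.39, beside -0.07 over all genes. Bmp4, a ligand, had 76.2, 178 and 129 CPM in AML and 32.3, 96.2 and 94.3 CPM in Control in arterial cells and 13.4, 11.1 and 9.17 CPM in AML and 21.7, 19.6 and 21.2 CPM in Control in other endothelial cells (interaction 1.53 ± 0.35, adjusted p = 0.00473). Id2, a target of the pathway, had 175, 217 and 298 CPM in AML and 82.1, 81.4 and 169.7 CPM in Control in arterial cells and 74.2, 47.9 and 70.7 CPM in AML and 61.6, 58.2 and 74.5 CPM in Control in other endothelial cells (interaction 1.01 ± 0.25, adjusted p = 0.014). Its arterial values did not overlap between the groups, and its other values did. Smad6, which inhibits BMP signalling, had an interaction of 0.76 ± 0.21. Inhbb, a subunit of activins, had one of -2.51 ± 0.63. Limma called none of these 4 (adjusted p between 0.69 and 0.72).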

How the data were processed

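The deposited files are 10x matrices of raw UMI counts over 32285 features. Cell Ranger wrote them (version 7.0.0 on mm10 per the submitters' processing notes, 6.0.1 per the file headers), and the authors added no normalization that the values show. Aligner settings and strand are not given in the sources used here. Raw counts of arterial and of other endothelial cells were summed per library, TMM-normalised and fitted with edgeR 4.0.16 (R 4.3.3) by the quasi-likelihood test after filterByExpr, with Benjamini-Hochberg adjustment at 0.05 over all genes tested. The arterial against other fit and its interaction had the library as a block. The 15 genes of the rule were left out of counts. The edgeR fits of arterial cells, of the cell classes and of the interaction, and limma's fits, were run on simulated counts. These were drawn at each comparison's own fitted dispersion, so they cannot show whether that dispersion was too low.

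Named genes were up to 15 a direction past the threshold without overlap, with a mean of at least 50 CPM and 10 UMIs in a group, and, where fewer than 5 passed, the 10 of lowest p. Between cell classes and for the interaction 10 were named. The members, lists and rules were chosen with earlier results of these data known. Scrublet's own threshold called 2, 71 and 88 doublets in AML and 5, 6 and 3 in Control, too few to have worked, so doublets stayed in, and removing the top scores (0.8% per 1000 cells) was an alternative. Libraries shared 1 to 24 barcodes a pair. Other alternatives were DESeq2 1.42.0, its size factors, no filter, each library left out, at least 3 rule UMIs, thinning to 3000 UMIs, 27 cells a library, at most 10% mitochondrial UMIs and the replicate number as a block. Thinning left out cells with fewer than 3000 UMIs. Limma 3.58.1 within libraries and matched cell numbers were added after seeing the data. Whether replicate numbers in the labels pair the libraries is undecided, and the main fit took no pairing. Some members of the gene lists are counted but not reported here by name. Coordinates are from GENCODE M21 (GRCm38), and promoter windows from RefSeq (GRCm38.p6).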

Additional observations from a re-analysis of the deposited data

Results flagged for a closer look

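In the 10 genes of lowest adjusted p among those above the level minimum and outside the marker lists of other lineages, the AML minus Control change differed between arterial and other endothelial cells by edgeR's interaction test. Values are log2 ± SE, arterial minus other. They were -1.62 ± 0.19 for Timp3, -2.57 ± 0.32 for Bhlhe40, -2.80 ± 0.37 for Syn3, 1.34 ± 0.20 for Abi3bp and -1.03 ± 0.20 for Marcks, whose levels stand above. Syn3 had 17.9, 51.0 and 58.5 CPM in AML and 111, 42.6 and 51.8 CPM in Control in arterial cells and 33.4, 108 and 108 CPM in AML and 25.9, 15.4 and 16.9 CPM in Control in other endothelial cells. The flavin monooxygenase Fmo2 had 739, 1657 and 1153 CPM in AML and 783, 890.1 and 542 CPM in Control in arterial cells and 171, 164 and 241 CPM in AML and 340.4, 284 and 268 CPM in Control in other endothelial cells (1.21 ± 0.20). It was higher in arterial cells of all 6 libraries. Fxyd5, a regulator of the sodium pump, had 654, 427 and 819 CPM in AML and 232, 561 and 608 CPM in Control in arterial cells and 370.2, 517 and 551 CPM in AML and 120.1, 184 and 153 CPM in Control in other endothelial cells (-1.21 ± 0.21). Its arterial values overlapped. Ankrd37, a gene induced in hypoxia, had 76.2, 6.37 and 93.6 CPM in AML and 14.7, 29.6 and 23.6 CPM in Control in arterial cells and 81.0, 21.6 and 301 CPM in AML and 4.66, 11.4 and 9.02 CPM in Control in other endothelial cells (-2.49 ± 0.43), with AML 2 far below the other AML libraries in both classes. The small GTPase gene Rhoc had 238, 357 and 257 CPM in AML and 217, 272 and 276 CPM in Control in arterial cells and 406, 971 and 428 CPM in AML and 169.8, 252 and 255 CPM in Control in other endothelial cells (-1.25 ± 0.22). The sulfhydryl oxidase Qsox1 had 524, 478 and 328 CPM in AML and 431, 514 and 245 CPM in Control in arterial cells and 462, 606 and 588 CPM in AML and 249, 252 and 181 CPM in Control in other endothelial cells (-1.14 ± 0.21). In Fxyd5, Rhoc and Qsox1 the AML and Control values were apart in other endothelial cells and overlapped in arterial cells. Limma on differences within libraries called Timp3 and Syn3 alone of these 10, and with matched cell numbers Timp3, Bhlhe40, Abi3bp and Marcks were called.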

How the results depend on the processing

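Of 6 calls between AML and Control in arterial cells, DESeq2 gave 19, no filter on low counts 64 and thinning to 3000 UMIs 3. Leaving out each library gave 0 to 51. Without AML 3 it was 0 (342 at an unadjusted p under 0.05). With the replicate block it was 89. Whether the numbers pair the libraries is undecided. Same-numbered libraries correlated at 0.018, 0.041 and 0.119, the highest value for each AML library, while Control 1 correlated best with AML 2 (0.037). The cause of these changes was not tested. DESeq2 size factors, at least 3 rule UMIs, doublet removal, equal cells and 10% mitochondrial UMIs gave 5 or 6. Ucp2 lost its call without AML 3, Mt2 without AML 3 or Control 1, and Ly6c1, Cirbp, Hspa1a and Sox4 without AML 2, AML 3 or Control 1. Hspa1a and Sox4 lost it also with at least 3 rule UMIs. No named gene reversed. Between cell classes, 2328 became 1323 with thinning and 1006 with matched cells, and 1857 to 2308 without a library. The interaction count of 76 became 16 with DESeq2, 13 with thinning, 4 with matched cells, 2 with limma and 44 to 140 without a library, lowest without Control 1 and highest without AML 1. Fewer cells or libraries enter the thinned, matched and leave-one-out fits. The share difference kept its sign and lay between -1.097 and -0.860 points without a library. Depth limits the arterial sums: AML libraries held 156919 to 223145 UMIs.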

Other observations

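Angiogenesis genes divided between the cell classes: of 26 tested, 8 were higher in arterial cells and 11 lower, beside 9.88% and 10.8% of all genes. The receptors Kdr (-0.69 ± 0.13, log2 ± SE, arterial minus other), Tek (-0.34 ± 0.11) and Flt4 (-0.61 ± 0.18) were lower. Vegfa itself had 249 to 642 CPM (median 364) in arterial cells, against 112 to 521 CPM (median 321) in other endothelial cells (0.52 ± 0.12). Between AML and Control none of 19 passed in edgeR's test, and in 5 all AML values lay below all Control values, beside 8.55% of all genes. Among 24 xenobiotic and oxidative stress genes 6 were higher in arterial cells and 3 lower, beside 9.88% and 10.8% of all genes. One of the higher was Cyp1b1, a cytochrome P450 with 2.36 to 18.5 CPM (median 13.1), against 0 to 0.367 CPM (median 0.120). Ucp2, which was higher in AML, was among the 3 lower in arterial cells (-1.55 ± 0.11).

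Of 7 interferon gamma-induced genes none passed between AML and Control in arterial cells (edgeR), 3 were lower at an unadjusted p under 0.05, beside 5.18% of all genes, and in 1 all AML values lay below all Control values, beside 8.55%. The median log2 change was -0.84, beside -1.83 in other endothelial cells. Gbp7, a guanylate-binding protein, had 143, 38.2 and 87.8 CPM in AML and 135, 154 and 120.2 CPM in Control in arterial cells and 141, 28.2 and 57.5 CPM in AML and 303, 240.0 and 271 CPM in Control in other endothelial cells. Its interaction was 1.20 ± 0.29 (adjusted p = 0.00906), and limma did not call it (adjusted p = 0.321).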
